A study of Homo sapiens with 8 samples.

Results

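The members described here are the genes for cytosolic translation initiation and elongation factors in ribosome-bound RNA of a brain-metastatic human lung cancer line. They are the 63 of 23368 gene symbols in the deposited table that begin with EIF1 to EIF6, EEF1 or EEF2. The kinases EIF2AK1, EIF2AK2, EIF2AK3, EIF2AK4 and EEF2K and the pseudogenes EEF1DP3 and EIF3IP1 were left out. Of the 63 symbols, 4 (EIF2C1, EIF2C2, EIF2C3 and EIF2C4) are older names of the Argonautes AGO1 to AGO4, which act in small-RNA silencing and not in initiation, so they are kept apart and the other 59 are called factors. The factors fall into 5 TOP-type elongation factors (EEF1A1, EEF1B2, EEF1D, EEF1G and EEF2), 3 other EEF1 symbols, 14 EIF3 subunits and 37 other initiation factors and regulators. In all, 56 members had a mean normalized count of at least 10 over the 8 libraries and were tested. Among the 52 tested factors were 5 TOP-type elongation factors, 2 other EEF1 symbols, 12 EIF3 subunits and 33 other initiation factors.

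Elongation factors bring aminoacyl-tRNA to the ribosome and move it along the message, and initiation factors bring the ribosome to the start codon. EIF3 is a large scaffold on the small ribosomal subunit, EIF4F binds the cap and unwinds the leader, and EIF2 carries the initiator tRNA and is recharged with GTP by EIF2B. Messages of ribosomal proteins and of most elongation factors begin with a C followed by a run of pyrimidines, the TOP (terminal oligopyrimidine) start. TOP messages are loaded onto or withheld from ribosomes together, under control of mTORC1 and LARP1, so a purification of ribosome-bound RNA reads both how much of such a message there is and how much of it is on ribosomes.

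All cells were H2030-BrM, derived from H2030, a human lung adenocarcinoma line, for its spread to the brain. All of them, controls included, carried the pLVX-EGFP-Rpl10a-IRES-hygro construct, whose EGFP-tagged ribosomal protein let ribosomes and their RNA be pulled down with the antibodies 19C8 and 19F7 (translating ribosome affinity purification, TRAP). There were 4 groups of 2 libraries: shL1CAM_slice (L1CAM shRNA, 48 h on a mouse organotypic brain slice), shControl_slice (Luciferase shRNA, 48 h on the slice), shL1CAM_dish (L1CAM shRNA, petri dish, 0 h) and shControl_dish (Luciferase shRNA, petri dish, 0 h). Slice cultures had DMEM with HBSS and a lower serum share than the RPMI of the dish, so substrate, medium, serum and time cannot be told apart. The labels call the replicates biological but do not say that they were separate cultures, and p-values measure the spread between these libraries, which may be technical. In bulk libraries, fewer cells of a kind and less RNA per cell cannot be told apart.

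Libraries held 13486212 to 16734651 recovered reads, and the limit set by a count of 0, which is 3 reads, equals 2.75 to 3.57 normalized counts. L1CAM had normalized counts of 74.7 and 65.4 in shL1CAM_slice against 451 and 438 in shControl_slice, and 126 and 88.3 in shL1CAM_dish against 482 and 440.4 in shControl_dish, so all 4 knockdown libraries lay below all 4 control libraries. Replicate 2 of shL1CAM_slice stood apart from the other 7 libraries. Its shortest 10% of transcripts were shifted by 0.50 and its longest 10% by -0.69 on the log2 scale, and ribosomal protein genes took 9.37% of its signal, against 4.83% to 6.60% in the other 7. Calls, class medians and signs of factors that change without it are given with and without it. Of the human markers of mouse brain cells, C1QA, C1QB, P2RY12 and MOG were listed at 0 in every library. Low markers were those with a dish mean under 10. The summed normalized counts of the low markers were 3.21 to 6.46 for neurons (SYT1 and STMN2), 0.955 to 6.46 for microglia and 0 to 5.73 for astrocytes (GFAP, AQP4, SLC1A2 and ALDH1L1) over the 8 libraries. All 7 neuron markers summed to 348 to 400 in the slice and 337 to 503 in the dish libraries. Of these, SLC17A7 had 85.0 and 76.0 in shControl_slice against 18.6 and 40.6 in shControl_dish. With L1CAM shRNA it had 28.6 and 35.7 on the slice against 28.4 and 11.0 in the dish. GAD1 was lower on the slice (63.0 to 86.9) than in the dish (112 to 148). GJA1, the other astrocyte marker, had 978 to 1291 on the slice and 1657 to 2054 in the dish. The endothelial markers summed to 8.59 to 16.7 in the slice libraries and 4.58 to 8.80 in the dish libraries. Their part in the slice results was not tested. Of 6 lung epithelial cancer markers, EPCAM, KRT8 and KRT18 had means of at least 50 in the dish, and KRT7 and KRT19 were low.

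The first bases of the messages are shown because the TOP start lies in them. Of the 63 members, 52 had an entry among RefSeq promoter windows (GRCh38.p14, 250 bases before to 50 bases after the annotated start). The motif searched was a C exactly at the annotated first base followed by at least 4 bases that are each C or T, on the transcript strand only. Each line gives 30 bases, 10 before the start and 20 from it, with the pyrimidine run in capitals. The first 7 messages have such a start and the last 4 do not.
EEF1A1 chr6:73521013-73521042 (-): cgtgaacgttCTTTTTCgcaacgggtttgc
EEF2 chr19:3985444-3985473 (-): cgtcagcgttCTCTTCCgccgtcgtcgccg
EEF1B2 chr2:206159885-206159914 (+): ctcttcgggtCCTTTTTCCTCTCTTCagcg
EIF4A2 chr3:186783567-186783596 (+): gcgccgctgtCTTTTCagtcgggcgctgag
EIF3F chr11:7987327-7987356 (+): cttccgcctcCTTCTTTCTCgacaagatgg
EIF3D chr22:36529147-36529176 (-): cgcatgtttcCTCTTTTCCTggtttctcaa
EIF4B chr12:53006446-53006475 (+): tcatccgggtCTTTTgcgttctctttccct
EEF1G chr11:62573872-62573901 (-): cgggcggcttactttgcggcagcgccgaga
EIF2S1 chr14:67360318-67360347 (+): gaggttccgcatgcgcggtggagtgagcga
EIF5B chr2:99337379-99337408 (+): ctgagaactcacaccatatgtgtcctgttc
EIF2B3 chr1:44986576-44986605 (-): gctgtcagtcagaggcggcgtggagatcgc
The longest run shown, of 16 bases, is that of EEF1B2, at 1 of the gene's 2 annotated starts. The motif stood at the start of 1429 of all 35116 windows (4.07%). Counted by gene, with a match at any of its starts, 767 of 10244 tested genes with a window had it (7.49%). So did 47 of 67 ribosomal protein genes with a window (70.1%) and 12 of 49 factors with one (24.5%). The 12 factors were EEF1A1, EEF1B2, EEF2, EIF2A, EIF2D, EIF2S3, EIF3D, EIF3F, EIF3K, EIF3M, EIF4A2 and EIF4B. EEF1D, EIF3E and EIF3H were among the members without a window, so their starts were not examined. An annotated start can differ from the start used in these cells, so a match or its absence describes these letters alone.

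**Figure D1:**
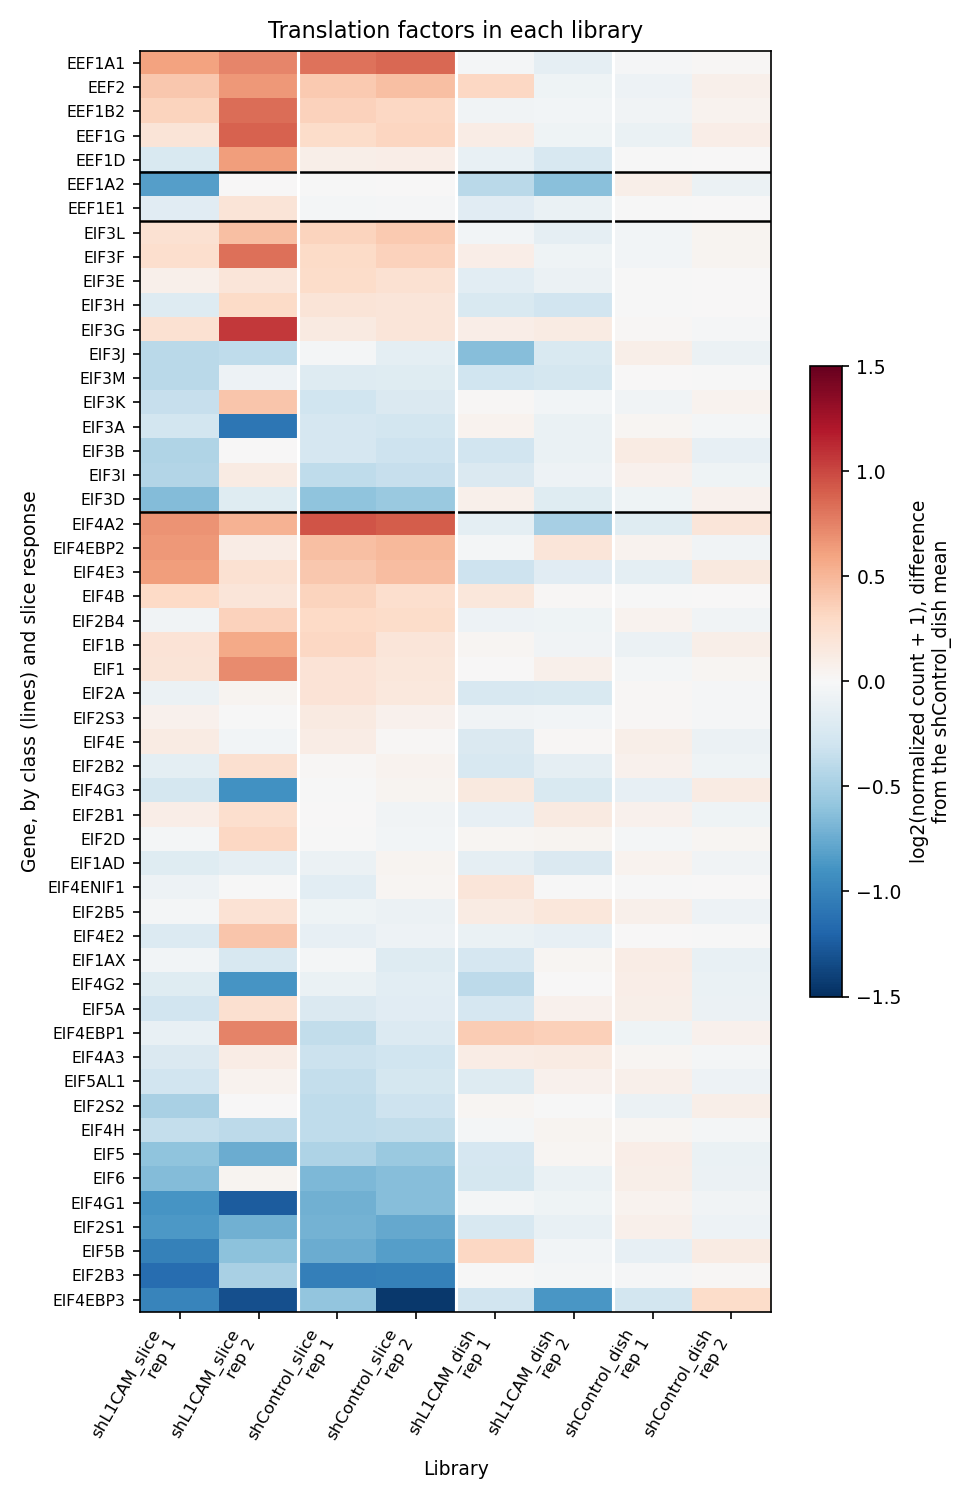
Each row is a tested factor and each column a library; colour gives log2(normalized count + 1) minus the mean of shControl_dish, from -1.5 to 1.5. Black lines separate the TOP-type elongation factors, other EEF1 symbols, EIF3 subunits and other initiation factors, which are ordered by their slice response with control shRNA; EEF1A1 and EIF4A2 are high and EIF4G1, EIF2S1, EIF5B and EIF2B3 low in the 4 slice columns.

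In cells on the brain slice, EEF1A1, the main carrier of aminoacyl-tRNA, and EIF4A2, a cap-complex helicase, rose with either shRNA. EIF4G1 (the cap-complex scaffold), EIF5B (which joins the ribosomal subunits), EIF2S1 (the regulated subunit of EIF2) and EIF2B3 (a subunit of its exchange factor) fell with either shRNA. With L1CAM shRNA, EEF1B2 and EIF4E3 also passed the test as higher and EIF5 as lower. These 3 calls ended when no filter on low values was used. Counts were 4 higher and 5 lower of 52 factors with L1CAM shRNA (17.3%), and 2 higher and 4 lower with control shRNA (11.5%), at a limma adjusted p under 0.05 over the 13010 genes tested. Over all genes tested, 10.1% were called higher and 11.2% lower (21.3% in either direction) with L1CAM shRNA, and 6.80% higher and 8.03% lower (14.8%) with control shRNA. The share of factors called was thus near or under that of all genes in both comparisons. The 6 factors called with control shRNA were all among the 9 called with L1CAM shRNA.

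Log2 fold changes below are slice over dish, on the log2(normalized count + 1) scale, with the standard error of the fit (2 libraries in each group). EEF1A1 had normalized counts of 34681 and 37677 in shL1CAM_slice and 40034 and 41163 in shControl_slice, against 22323 and 20768 in shL1CAM_dish and 22462 and 23018 in shControl_dish. All 4 slice libraries lay above all 4 dish libraries, with no overlap. Its log2 fold change was 0.75 ± 0.13 with L1CAM shRNA (limma adjusted p = 0.00811) and 0.84 ± 0.13 with control shRNA (limma adjusted p = 0.00730), which is 1.68-fold with L1CAM shRNA and 1.79-fold with control shRNA. EEF2, the translocase that moves the ribosome by a codon, had normalized counts of 45283 and 53735 in shL1CAM_slice and 45012 and 46873 in shControl_slice, against 42588 and 32626 in shL1CAM_dish and 32582 and 35963 in shControl_dish. The slice libraries were again the 4 highest, and replicate 1 of shL1CAM_dish came close to them. The log2 fold change did not pass the test, at 0.40 ± 0.17 with L1CAM shRNA (limma adjusted p = 0.126) and 0.42 ± 0.17 with control shRNA (limma adjusted p = 0.133). EEF1B2, the catalytic exchange subunit that reloads EEF1A with GTP, had normalized counts of 4718 and 6686 in shL1CAM_slice and 4742 and 4627 in shControl_slice, against 3594 and 3637 in shL1CAM_dish and 3602 and 3884 in shControl_dish. Replicate 2 of shL1CAM_slice was the highest library for EEF1B2, and the other 3 slice libraries also lay above every dish library. The log2 fold change of EEF1B2 was 0.64 ± 0.17 with L1CAM shRNA (limma adjusted p = 0.0327) and 0.32 ± 0.17 with control shRNA (limma adjusted p = 0.237), and 0.38 with L1CAM shRNA without replicate 2 of shL1CAM_slice.

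EEF1G, a structural subunit of the same exchange complex, had normalized counts of 9566 and 15393 in shL1CAM_slice and 10084 and 10434 in shControl_slice, against 9065 and 7995 in shL1CAM_dish and 7821 and 8941 in shControl_dish. The slice libraries were higher than the dish libraries with no overlap, and replicate 2 of shL1CAM_slice was far above the rest. Its log2 fold changes were 0.51 ± 0.21 with L1CAM shRNA (limma adjusted p = 0.118) and 0.29 ± 0.21 with control shRNA (limma adjusted p = 0.379). EEF1D, the remaining exchange subunit, had normalized counts of 5047 and 9174 in shL1CAM_slice and 6289.6 and 6350.1 in shControl_slice, against 5484 and 4993 in shL1CAM_dish and 5913 and 5928 in shControl_dish. Here slice and dish overlapped, because replicate 1 of shL1CAM_slice lay within the dish range, and the log2 fold changes were 0.38 ± 0.24 with L1CAM shRNA (limma adjusted p = 0.283) and 0.09 ± 0.24 with control shRNA (limma adjusted p = 0.826). The 5 TOP-type elongation factors together took 0.687% and 0.764% of the signal in shL1CAM_slice and 0.712% and 0.736% in shControl_slice, against 0.542% and 0.463% in shL1CAM_dish and 0.467% and 0.507% in shControl_dish. This summed share was higher in every slice library than in every dish library, while ribosomal protein signal was highest in replicate 2 of shL1CAM_slice, and the part of that library's shift was not tested.

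**Figure D2:**
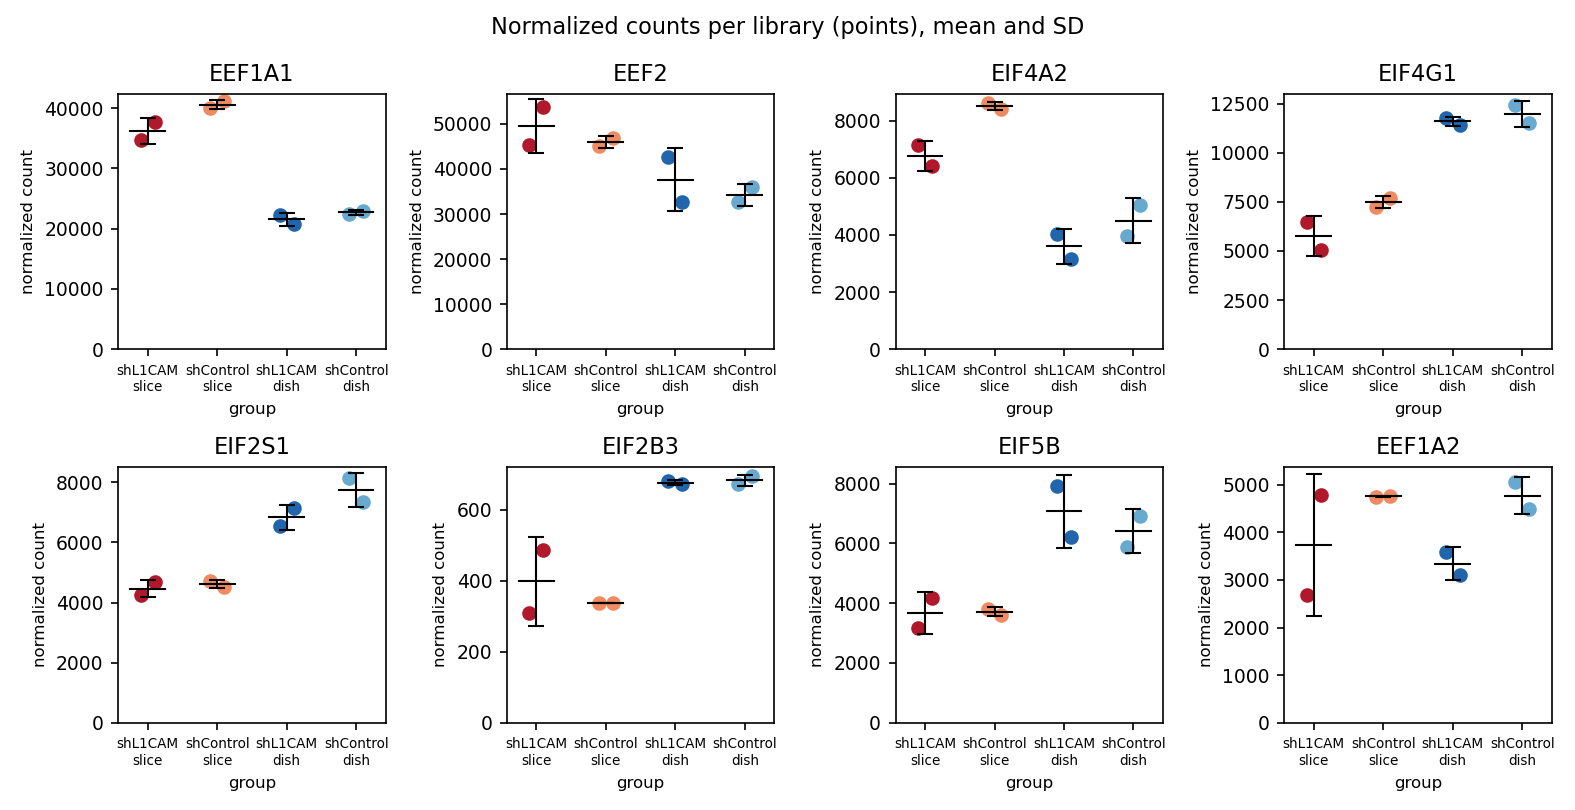
Normalized counts (vertical axes, from 0) of 8 factors in the 2 libraries of each group, with the mean and SD. EEF1A1, EEF2 and EIF4A2 are higher, and EIF4G1, EIF2S1, EIF2B3 and EIF5B lower, in all 4 slice libraries than in all 4 dish libraries; EEF1A2 overlaps.

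Neither tested gene of the other EEF1 symbols passed the threshold in a slice comparison. EEF1A2, the isoform of EEF1A that adult neurons and muscle use in place of EEF1A1, had normalized counts of 2679 and 4788 in shL1CAM_slice and 4747 and 4768 in shControl_slice, against 3589 and 3094 in shL1CAM_dish and 5049 and 4492 in shControl_dish. Its lowest library was replicate 1 of shL1CAM_slice, and both shL1CAM_dish libraries lay below every control library. The slice log2 fold changes were 0.10 ± 0.24 with L1CAM shRNA (limma adjusted p = 0.781) and -0.0015 ± 0.24 with control shRNA (limma adjusted p = 0.997). EEF1E1, a scaffold of the aminoacyl-tRNA synthetase complex and not an elongation factor by function, stayed within 205 to 264 normalized counts in the 8 libraries. Its log2 fold changes were 0.15 ± 0.18 with L1CAM shRNA (limma adjusted p = 0.572) and -0.03 ± 0.18 with control shRNA (limma adjusted p = 0.935). Per kilobase of transcript, the mean level of EEF1A1 was 9142 normalized counts in shControl_slice and 5120.5 in shControl_dish. That of EEF1A2 was 2362 in shControl_slice and 2369 in shControl_dish. The lengths used, 4441 bases for EEF1A1 and 2014 for EEF1A2, are medians over annotated transcripts. A comparison of the 2 genes on this scale therefore depends on which transcripts are annotated.

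None of the 12 tested EIF3 subunits passed the threshold in either slice comparison (0 of 12 by limma in each). Over all genes tested, 21.3% were called with L1CAM shRNA and 14.8% with control shRNA. Unadjusted p was under 0.05 for 4 subunits with L1CAM shRNA and 2 with control shRNA, beside 4873 and 4113 of the 13010 genes tested. edgeR also called 0, and DESeq2 called EIF3F and EIF3L with L1CAM shRNA and EIF3D with control shRNA. The subunits did not move as a block: 8 of 12 log2 fold changes were positive with L1CAM shRNA (median 0.04, range -0.65 to 0.54) and 5 of 12 with control shRNA (median -0.14, range -0.58 to 0.37). EIF3D, a subunit that can itself bind the cap of some messages, had normalized counts of 4167 and 5768 in shL1CAM_slice and 4319 and 4454 in shControl_slice, against 6937 and 5804 in shL1CAM_dish and 6248 and 6886 in shControl_dish. The 2 shControl_slice libraries and replicate 1 of shL1CAM_slice were the 3 lowest, and replicate 2 of shL1CAM_slice lay just under the lowest dish library. Its log2 fold changes were -0.37 ± 0.18 with L1CAM shRNA (limma adjusted p = 0.168) and -0.58 ± 0.18 with control shRNA (limma adjusted p = 0.0624). EIF3L, a peripheral subunit, had normalized counts of 5909.9 and 6912 in shL1CAM_slice and 6365 and 6643 in shControl_slice, against 4920.2 and 4596 in shL1CAM_dish and 4899 and 5200.3 in shControl_dish. All slice libraries exceeded all dish libraries, by a log2 fold change of 0.43 ± 0.14 with L1CAM shRNA (limma adjusted p = 0.0577) and 0.37 ± 0.14 with control shRNA (limma adjusted p = 0.111).

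EIF3E, a peripheral subunit whose message is known as a TOP message, had normalized counts of 9429 and 10206 in shL1CAM_slice and 10827 and 10505 in shControl_slice, against 8052 and 8444 in shL1CAM_dish and 8962 and 8989.8 in shControl_dish. The slice libraries were above the dish libraries without overlap, with log2 fold changes of 0.25 ± 0.13 with L1CAM shRNA (limma adjusted p = 0.190) and 0.25 ± 0.13 with control shRNA (limma adjusted p = 0.221). EIF3I, a propeller-shaped subunit of the core, had normalized counts of 5515 and 8136 in shL1CAM_slice and 5743 and 5873 in shControl_slice, against 6399 and 7051 in shL1CAM_dish and 7790.1 and 7138 in shControl_dish. In control cells the slice libraries were lower, whereas replicate 2 of shL1CAM_slice was the highest of all 8 libraries, and the log2 fold changes were -0.004 ± 0.19 with L1CAM shRNA (limma adjusted p = 0.989) and -0.36 ± 0.19 with control shRNA (limma adjusted p = 0.223). EIF3F and EIF3H, which with EIF3E are known TOP messages, had log2 fold changes of 0.53 with L1CAM shRNA and 0.32 with control shRNA (EIF3F) and of 0.31 with L1CAM shRNA and 0.19 with control shRNA (EIF3H), so all 3 were positive with either shRNA and none passed the test. EIF3A, the large scaffold subunit, was lowest in replicate 2 of shL1CAM_slice, at 2735 normalized counts against 4799 in replicate 1. The log2 fold changes of EIF3A were -0.65 with L1CAM shRNA (limma adjusted p = 0.0764) and -0.26 with control shRNA (limma adjusted p = 0.475).

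The remaining tested EIF3 subunits, B, G, J, K and M, had log2 fold changes between -0.04 and 0.54 with L1CAM shRNA and between -0.28 and 0.16 with control shRNA. EIF3G, which contacts ribosomal RNA and messenger RNA, carried the upper of these values, and its 6905 normalized counts in replicate 2 of shL1CAM_slice stood far above the 3874 in replicate 1. In the share of signal, the EIF3 subunits took 0.398% and 0.458% in shL1CAM_slice and 0.429% and 0.430% in shControl_slice, against 0.397% and 0.405% in shL1CAM_dish and 0.436% and 0.431% in shControl_dish. Those shares overlapped between slice and dish.

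Among factors of the cap complex EIF4F and its helicase cofactors, 2 of 9 tested were called higher and 1 lower with L1CAM shRNA, and 1 higher and 1 lower with control shRNA. Over all genes tested, 10.1% were called higher and 11.2% lower with L1CAM shRNA, and 6.80% higher and 8.03% lower with control shRNA. EIF4A2, one of the paralogous RNA helicases of EIF4F, had normalized counts of 7148 and 6403 in shL1CAM_slice and 8625 and 8411 in shControl_slice, against 4039 and 3174 in shL1CAM_dish and 3957 and 5055 in shControl_dish. The slice libraries lay above the dish libraries without overlap, and the shControl_slice libraries were the highest. Its log2 fold change was 0.92 ± 0.17 with L1CAM shRNA (limma adjusted p = 0.00983) and 0.93 ± 0.17 with control shRNA (limma adjusted p = 0.0127), or 1.89-fold with L1CAM shRNA and 1.90-fold with control shRNA. EIF4A1, the paralog that usually predominates in dividing cells, was listed at 0 in all 8 libraries. In RefSeq it lies within the readthrough gene SENP3-EIF4A1, which had 0 to 2.38 normalized counts, so the balance of the paralogs could not be read from the table. EIF4A3, a helicase of the same family that sits in the exon junction complex, had log2 fold changes of -0.17 with L1CAM shRNA (limma adjusted p = 0.433) and -0.31 with control shRNA (limma adjusted p = 0.193).

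EIF4G1, the scaffold that joins the cap-binding protein to the helicase and to EIF3, had normalized counts of 6498 and 5028 in shL1CAM_slice and 7259 and 7701 in shControl_slice, against 11754 and 11425 in shL1CAM_dish and 12429 and 11517 in shControl_dish. Every slice library was below every dish library, and replicate 2 of shL1CAM_slice was the lowest. Its log2 fold change was -1.02 ± 0.16 with L1CAM shRNA (limma adjusted p = 0.00444) and -0.68 ± 0.16 with control shRNA (limma adjusted p = 0.0236), that is 2.03-fold lower with L1CAM shRNA and 1.60-fold lower with control shRNA. EIF4G3, its paralog, had normalized counts of 1585 and 1010.2 in shL1CAM_slice and 1899 and 1955 in shControl_slice, against 2106 and 1624 in shL1CAM_dish and 1739 and 2079.6 in shControl_dish. Only the shL1CAM_slice libraries stood below the dish range, replicate 2 more so, and the log2 fold changes were -0.55 ± 0.23 with L1CAM shRNA (limma adjusted p = 0.114) and 0.02 ± 0.23 with control shRNA (limma adjusted p = 0.967). EIF4G2, which lacks the cap-binding protein's site and serves cap-independent initiation, had normalized counts of 13146 and 8064 in shL1CAM_slice and 13977 and 13389 in shControl_slice, against 11369 and 15032 in shL1CAM_dish and 16021 and 13897 in shControl_dish. Slice and dish overlapped, with log2 fold changes of -0.34 ± 0.24 with L1CAM shRNA (limma adjusted p = 0.315) and -0.13 ± 0.24 with control shRNA (limma adjusted p = 0.757). A lower level in the slice that passed the test was therefore seen for 1 of the 3 EIF4G genes; the differences between the 3 genes were not tested.

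EIF4E, the cap-binding protein, had normalized counts of 972 and 869 in shL1CAM_slice and 966 and 905 in shControl_slice, against 769 and 904 in shL1CAM_dish and 949.8 and 843 in shControl_dish. Its groups overlapped and the log2 fold changes were 0.14 with L1CAM shRNA (limma adjusted p = 0.536) and 0.06 with control shRNA (limma adjusted p = 0.815). EIF4E2, a cap-binding homolog tied to translational repression, had normalized counts of 739.8 and 1136 in shL1CAM_slice and 784 and 805 in shControl_slice, against 794 and 779.8 in shL1CAM_dish and 852 and 849.7 in shControl_dish. Replicate 2 of shL1CAM_slice was highest and the other 7 libraries lay close together, with log2 fold changes of 0.22 with L1CAM shRNA (limma adjusted p = 0.444) and -0.10 with control shRNA (limma adjusted p = 0.772). EIF4E3, a further cap-binding homolog, had normalized counts of 304 and 231 in shL1CAM_slice and 262 and 273 in shControl_slice, against 158 and 176 in shL1CAM_dish and 178 and 218 in shControl_dish. All slice libraries were above all dish libraries, and the log2 fold changes were 0.66 ± 0.20 with L1CAM shRNA (limma adjusted p = 0.0430) and 0.44 ± 0.20 with control shRNA (limma adjusted p = 0.166). Per kilobase EIF4E3 was rare, at 32.5 normalized counts in shControl_dish against 817 for EIF4E.

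The helicase cofactors EIF4B and EIF4H, which raise the activity of EIF4A, had opposite signs. EIF4B had log2 fold changes of 0.14 with L1CAM shRNA (limma adjusted p = 0.457) and 0.30 with control shRNA (limma adjusted p = 0.164). EIF4H had -0.38 with L1CAM shRNA (limma adjusted p = 0.0591) and -0.38 with control shRNA (limma adjusted p = 0.0773), and its slice libraries (5010.4 to 5132 normalized counts) were all below its dish libraries (6432 to 6785). Neither cofactor passed the test. EIF4E1B, a germline homolog, had at most 1.91 normalized counts in a library and was not tested.

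The EIF4E-binding proteins hold EIF4E away from EIF4G when mTORC1 is inactive, and none of the 4 genes of this group passed the threshold (0 of 4 by limma, edgeR and DESeq2 in each slice comparison). With control shRNA, EIF4EBP2 and EIF4EBP3 had an unadjusted p under 0.05, and with L1CAM shRNA 0 of 4 did. Of all 13010 genes tested, 4113 with control shRNA and 4873 with L1CAM shRNA did. EIF4EBP1 had normalized counts of 1041 and 1885 in shL1CAM_slice and 871 and 969 in shControl_slice, against 1461 and 1439 in shL1CAM_dish and 1071 and 1175 in shControl_dish. The highest library was replicate 2 of shL1CAM_slice, and the shL1CAM_dish libraries came next. Its log2 fold changes were -0.05 with L1CAM shRNA (limma adjusted p = 0.901) and -0.29 with control shRNA (limma adjusted p = 0.457). EIF4EBP2 had normalized counts of 1307 and 894 in shL1CAM_slice and 1135 and 1164 in shControl_slice, against 812 and 944 in shL1CAM_dish and 859.8 and 802 in shControl_dish. The slice libraries were above the dish libraries except replicate 2 of shL1CAM_slice, and the log2 fold changes were 0.30 with L1CAM shRNA (limma adjusted p = 0.282) and 0.47 with control shRNA (limma adjusted p = 0.134). EIF4EBP3, near the lower limit of testing, had normalized counts of 9.22 and 7.14 in shL1CAM_slice and 12.4 and 6.42 in shControl_slice, against 15.6 and 10.0 in shL1CAM_dish and 15.7 and 23.6 in shControl_dish. Its log2 fold changes had wide errors, -0.57 ± 0.43 with L1CAM shRNA and -1.02 ± 0.43 with control shRNA. EIF4ENIF1, the transporter that carries EIF4E into the nucleus, had log2 fold changes of -0.13 with L1CAM shRNA and -0.06 with control shRNA.

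EIF2 delivers the initiator tRNA, and phosphorylation of its subunit EIF2S1 slows initiation. EIF2S1 had normalized counts of 4263 and 4669 in shL1CAM_slice and 4721 and 4531 in shControl_slice, against 6539 and 7136 in shL1CAM_dish and 8139 and 7334 in shControl_dish. The 4 slice libraries were below the 4 dish libraries. Its log2 fold change was -0.61 ± 0.14 with L1CAM shRNA (limma adjusted p = 0.0163) and -0.74 ± 0.14 with control shRNA (limma adjusted p = 0.0118), that is 1.53-fold lower with L1CAM shRNA and 1.67-fold lower with control shRNA. The partner subunits of the same complex did not share this size: EIF2S2 had log2 fold changes of -0.25 with L1CAM shRNA (limma adjusted p = 0.321) and -0.34 with control shRNA (limma adjusted p = 0.216) and EIF2S3 of 0.08 with L1CAM shRNA (limma adjusted p = 0.663) and 0.10 with control shRNA (limma adjusted p = 0.631). EIF2A and EIF2D, which can deliver initiator tRNA without EIF2, had 0.22 with L1CAM shRNA and 0.18 with control shRNA and, for EIF2D, 0.10 with L1CAM shRNA and -0.02 with control shRNA.

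EIF2B, the exchange factor whose mutations cause a brain white-matter disease, has 5 subunits. In each slice comparison 1 of the 5 was called lower, beside 11.2% of all genes with L1CAM shRNA and 8.03% with control shRNA. This was EIF2B3, a subunit of its catalytic part, with normalized counts of 309.9 and 485 in shL1CAM_slice and 336 and 337 in shControl_slice, against 681 and 671 in shL1CAM_dish and 672 and 694 in shControl_dish. The shControl_slice libraries and replicate 1 of shL1CAM_slice lay close together and replicate 2 of shL1CAM_slice higher, but all 4 slice libraries were below all 4 dish libraries. Its log2 fold change was -0.80 ± 0.21 with L1CAM shRNA (limma adjusted p = 0.0269) and -1.02 ± 0.21 with control shRNA (limma adjusted p = 0.0164), that is 1.74-fold lower with L1CAM shRNA and 2.03-fold lower with control shRNA. Without replicate 2 of shL1CAM_slice the value with L1CAM shRNA was -1.12. The other 4 subunits had log2 fold changes of -0.05 to 0.23 with L1CAM shRNA and -0.08 to 0.29 with control shRNA. Per kilobase, EIF2B3 had 203 normalized counts in shControl_slice and 412 in shControl_dish.

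Start-codon selection is done by EIF1, EIF1A and EIF5, and the ribosomal subunits are joined by EIF5B. EIF5B had normalized counts of 3174 and 4159.7 in shL1CAM_slice and 3814 and 3600.3 in shControl_slice, against 7930.4 and 6202 in shL1CAM_dish and 5885 and 6927 in shControl_dish. All slice libraries were below all dish libraries. The log2 fold change of EIF5B was -0.95 ± 0.19 with L1CAM shRNA (limma adjusted p = 0.0108) and -0.78 ± 0.19 with control shRNA (limma adjusted p = 0.0258), that is 1.93-fold lower with L1CAM shRNA and 1.72-fold lower with control shRNA. EIF5, which triggers GTP hydrolysis on EIF2 at the start codon, had normalized counts of 8448 and 7603 in shL1CAM_slice and 9271 and 8685 in shControl_slice, against 10779 and 13073 in shL1CAM_dish and 13701 and 11932 in shControl_dish. Slice and dish did not overlap, and the log2 fold changes were -0.57 ± 0.15 with L1CAM shRNA (limma adjusted p = 0.0324) and -0.51 ± 0.15 with control shRNA (limma adjusted p = 0.0574). EIF1 and EIF1B, which guard against wrong start codons, had 0.41 with L1CAM shRNA (limma adjusted p = 0.129) and 0.18 with control shRNA (limma adjusted p = 0.517) and, for EIF1B, 0.39 with L1CAM shRNA (limma adjusted p = 0.119) and 0.24 with control shRNA (limma adjusted p = 0.344). EIF1AX, the X-linked EIF1A gene, had -0.03 with L1CAM shRNA and -0.11 with control shRNA, and the related EIF1AD had 0.01 with L1CAM shRNA and -0.02 with control shRNA.

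EIF5A, which helps ribosomes through runs of proline and carries the amino acid hypusine, had normalized counts of 17133 and 24599 in shL1CAM_slice and 17894 and 18538 in shControl_slice, against 17557 and 21870.2 in shL1CAM_dish and 22105 and 19677 in shControl_dish. Its groups overlapped, with log2 fold changes of 0.07 with L1CAM shRNA (limma adjusted p = 0.829) and -0.20 with control shRNA (limma adjusted p = 0.536). EIF5AL1 is a near-identical copy whose reads cannot be separated with certainty, and it had -0.05 with L1CAM shRNA (limma adjusted p = 0.853) and -0.31 with control shRNA (limma adjusted p = 0.239). EIF5A2, the paralog, stayed under a mean of 10 and was not tested, with normalized counts of 7.38 and 3.57 in shL1CAM_slice and 4.77 and 7.49 in shControl_slice, against 11.9 and 9.03 in shL1CAM_dish and 9.78 and 3.77 in shControl_dish. EIF6, which keeps the large ribosomal subunit from joining too early, had normalized counts of 2711 and 4404 in shL1CAM_slice and 2674 and 2745 in shControl_slice, against 3553 and 3999 in shL1CAM_dish and 4554 and 4005 in shControl_dish. Replicate 2 of shL1CAM_slice lay inside the dish range while the other 3 slice libraries lay below it, and the log2 fold changes were -0.13 ± 0.22 with L1CAM shRNA (limma adjusted p = 0.700) and -0.66 ± 0.22 with control shRNA (limma adjusted p = 0.0730).

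**Figure D3:**
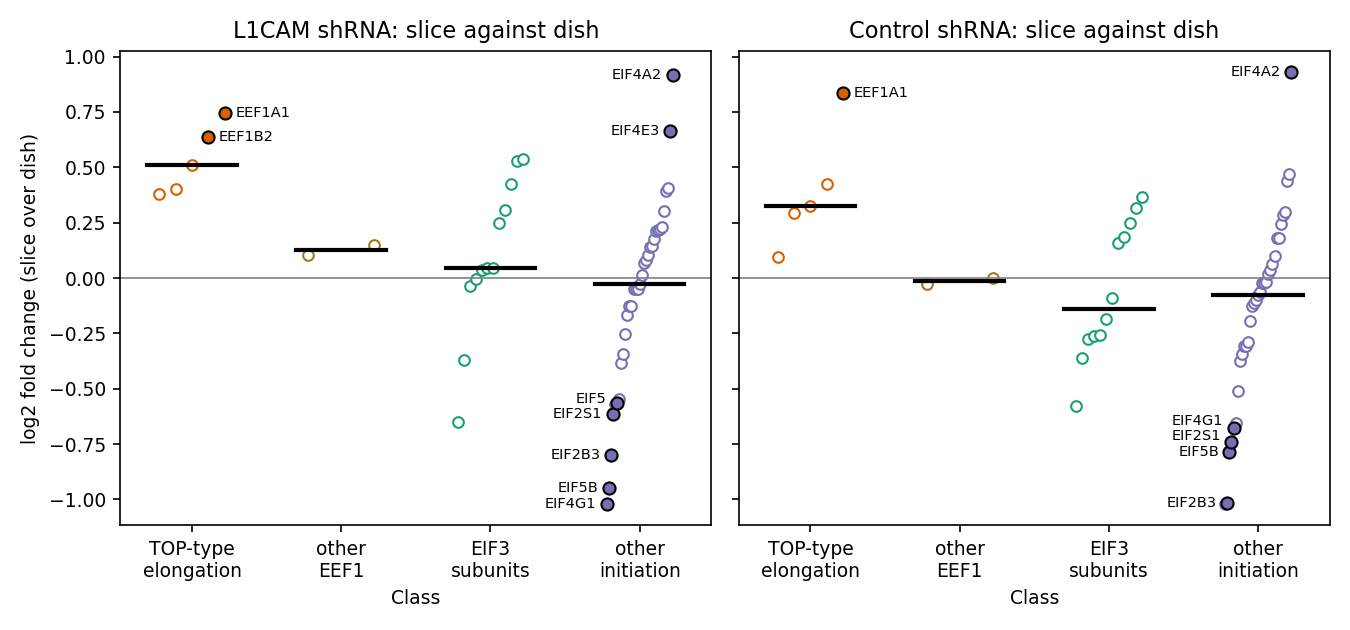
Log2 fold change, slice over dish (vertical axis), of every tested factor by class, with L1CAM shRNA on the left and control shRNA on the right; bars are class medians and filled, named points have a limma adjusted p under 0.05. The 5 TOP-type elongation factors are all above 0 in both panels, and the EIF3 subunits and other initiation factors lie on both sides of 0.

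Set side by side, the TOP-type elongation factors had positive slice log2 fold changes in 5 of 5 cases with each shRNA (with L1CAM shRNA in 4 of 5 without replicate 2 of shL1CAM_slice, EEF1D then being at -0.05), with medians of 0.51 (range 0.38 to 0.75) with L1CAM shRNA and 0.32 (range 0.09 to 0.84) with control shRNA. The EIF3 medians were 0.04 and -0.14, and those of the 33 other initiation factors -0.03 and -0.08, with 16 and 12 of 33 positive. The medians over all genes tested were -0.0019 and 0.013. Ribosomal protein genes, whose messages are of the TOP kind, had medians of 0.48 and 0.28 over 79 tested genes, with 14 higher and 0 lower with L1CAM shRNA and 2 higher and 2 lower with control shRNA, beside the shares of all genes given above. Without replicate 2 of shL1CAM_slice, the medians with L1CAM shRNA were 0.28 for the TOP-type elongation factors, -0.05 for EIF3, -0.09 for the other initiation factors and 0.16 for ribosomal protein genes. No class was tested as a set.

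Without that library 11 of the 52 factors had the opposite sign with L1CAM shRNA. EEF1A2 was at -0.31 in place of 0.10, EEF1D at -0.05 in place of 0.38 and EEF1E1 at -0.03 in place of 0.15. Of the EIF3 subunits, EIF3K was at -0.33 in place of 0.04 and EIF3M at -0.12 in place of 0.04. This left 6 of 12 subunits positive in place of 8. Of the other initiation factors, EIF5A was at -0.19 in place of 0.07, EIF4E2 at -0.09 in place of 0.22, EIF4G2 at 0.01 in place of -0.34 and EIF2D at -0.07 in place of 0.10. The remaining 2, EIF1AD and EIF1AX, stayed close to 0 in both fits. EIF3K was the one of the 11 that was called without the library. Among the factors that kept their sign, EEF1G was at 0.17 in place of 0.51, EEF1B2 at 0.38 in place of 0.64 and EIF6 at -0.48 in place of -0.13.

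The classes also differed between the 2 shL1CAM_slice libraries. Replicate 2 minus replicate 1 had a median log2 difference of 0.50 for the TOP-type elongation factors, 0.46 for EIF3, 0.13 for the other initiation factors and -0.87 for the Argonautes. In control cells, whose slice libraries did not include that one, the sum of the TOP-type elongation factors was still higher on the slice, at 0.712% and 0.736% of signal in shControl_slice against 0.467% and 0.507% in shControl_dish. EEF1A1 was the one TOP-type elongation factor that passed the test there, and its 40598 ± 798 normalized counts in shControl_slice stood against 22740.1 ± 393 in shControl_dish (SD, n = 2 each).

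**Figure D4:**
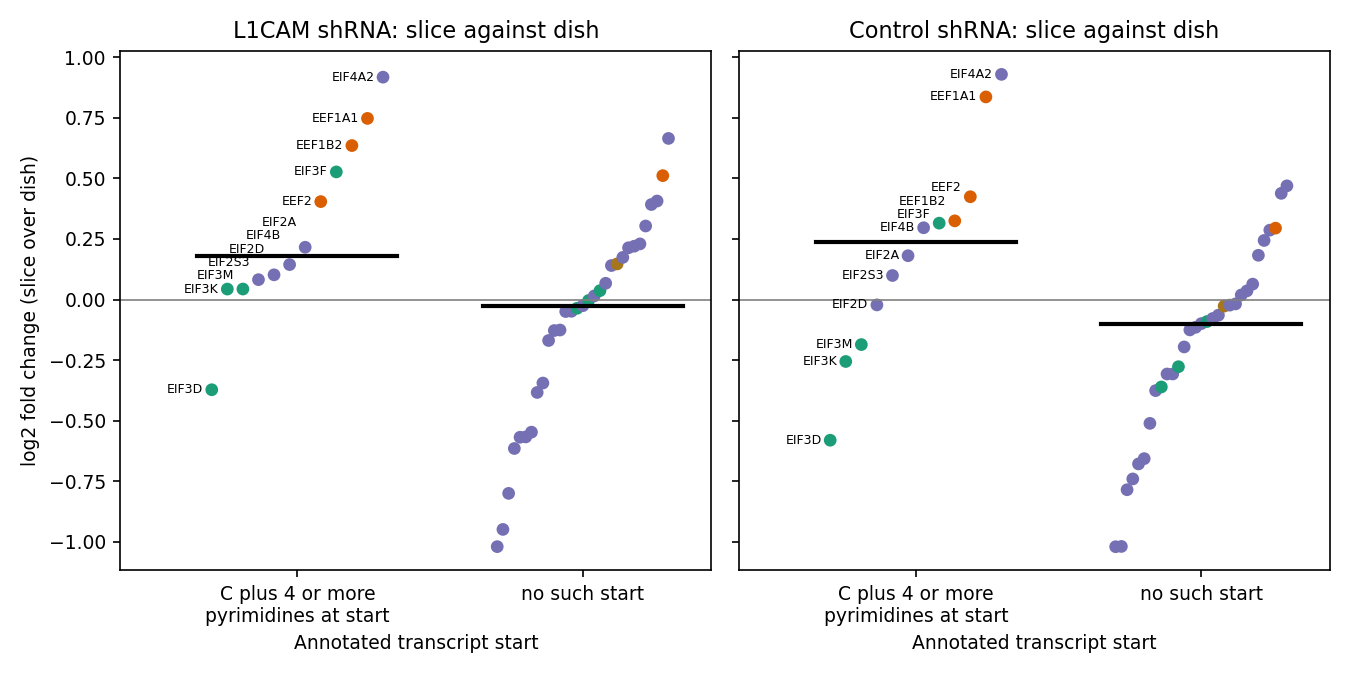
Log2 fold change, slice over dish (vertical axis), of the tested factors with and without a C and at least 4 further pyrimidines at the RefSeq start, L1CAM shRNA left and control shRNA right; colours give the class (orange TOP-type elongation, brown other EEF1, green EIF3, violet other initiation) and bars the medians. In the fit of all 8 libraries no factor with the motif was called lower; EIF3D, which has it, is the lowest of that column in both panels.

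When the 43 tested factors with a promoter window were split by the start sequence shown above in place of the class names, the 12 with the motif had a median slice log2 fold change of 0.18 with L1CAM shRNA (11 of 12 positive, range -0.37 to 0.92) and 0.24 with control shRNA (8 of 12 positive, range -0.58 to 0.93). Among them 3 and 2 were called higher, EEF1A1, EIF4A2 and (with L1CAM shRNA) EEF1B2, and 0 lower. Of all tested genes with the motif, 14.2% were called higher and 9.13% lower with L1CAM shRNA, and 9.39% higher and 6.39% lower with control shRNA. The 31 without it had medians of -0.03 and -0.10, with 1 higher and 5 lower with L1CAM shRNA and 0 higher and 4 lower with control shRNA. Of all tested genes without the motif, 9.74% were called higher and 11.6% lower with L1CAM shRNA, and 6.65% higher and 8.40% lower with control shRNA. The motif did not decide the sign: EIF3D has a run of 10 pyrimidines and log2 fold changes of -0.37 with L1CAM shRNA and -0.58 with control shRNA, and EEF1G has no such run at its annotated start and had 0.51 with L1CAM shRNA and 0.29 with control shRNA. Over all tested genes, the 767 with the motif had medians of 0.14 and 0.098, and the 9477 without it -0.02 and -0.00083. With L1CAM shRNA these were 0.070 and -0.0029 when replicate 2 of shL1CAM_slice was left out. Genes with the motif had a median transcript length of 2493.5 bases, against 2872 without it. For the factors these lengths were 2037 and 2591. The part of length in these medians was not tested. Without replicate 2 of shL1CAM_slice, the factors' medians with L1CAM shRNA were 0.18 with the motif and -0.16 without it. In that fit 8 of the 12 with the motif were positive, EIF3K, EIF3M and EIF2D having turned negative beside EIF3D. There 2 of the 12 (EIF3D and EIF3K) were called lower with each shRNA.

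**Figure D5:**
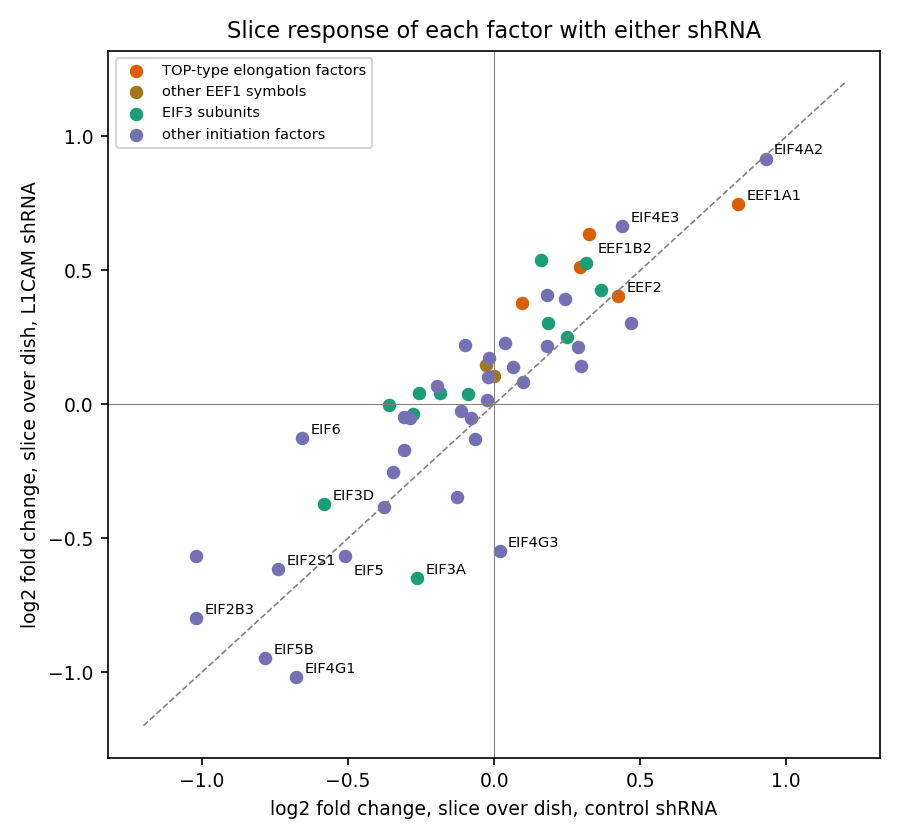
Slice over dish log2 fold change of each tested factor with L1CAM shRNA (vertical axis) against that with control shRNA (horizontal axis), coloured by class; the dashed line marks equal values. EIF4A2 and EEF1A1 are at the upper right and EIF2B3, EIF5B and EIF4G1 at the lower left; EIF4G3, EIF6 and EIF4EBP3 lie farthest from the line.

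The slice responses with L1CAM and with control shRNA share no library. Over the 52 factors their log2 fold changes had a Pearson r of 0.876 and a Spearman rho of 0.897, with the same sign for 41 (78.8%). Over all 13010 genes tested r was 0.829 and rho 0.804, with the same sign for 10533 (81.0%), so the factors were close to the background. These are descriptions across genes, which are not independent replicates. EIF6 (-0.13 with L1CAM shRNA and -0.66 with control shRNA) and EIF4G3 (-0.55 with L1CAM shRNA and 0.02 with control shRNA) were farthest apart among the factors, chosen after their values were seen. Neither difference passed the test of the interaction. With replicate 2 of shL1CAM_slice left out, r was 0.924 and rho 0.936 over the factors, with the same sign for 46 (88.5%). In the same fit r was 0.866 and rho 0.862 over all genes tested, with the same sign for 11146 (85.7%). In that fit EIF6 was at -0.48 and EIF4G3 at -0.22 with L1CAM shRNA.

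With 2 libraries per group, single libraries decided part of the calls. Of the 9 calls with L1CAM shRNA, all were also made without replicate 1 and without replicate 2 of shL1CAM_slice. Without replicate 1, 32 factors (23 higher and 9 lower) were called beside 57.7% of all genes. Without replicate 2, the count was 18 factors (6 higher and 12 lower) beside 38.7% of all genes. When replicate 1 of shL1CAM_dish was left out, only EIF4A2 was called, and when replicate 2 was left out, EIF4G1 and EIF5B. Leaving out either shControl_dish library kept EEF1A1, EIF4A2, EIF4G1, EIF5B and EIF2S1, and leaving out either shControl_slice library kept these without EIF2S1. For the fits without a shL1CAM_dish or a control library, the share of all genes called with L1CAM shRNA is not given here. The calls lost in them are therefore not read as particular to the factors. A fit of only the 4 libraries compared called 0 factors with L1CAM shRNA, beside 3.92% of all genes, and 34 with control shRNA, beside 52.3% of all genes.

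The 6 factors called with control shRNA kept their direction under every alternative that was run, but none of them was called when any 1 of the 4 control libraries was left out, which leaves its group with 1 library that is assumed to vary like the others. Their limma adjusted p then reached 0.121 for EEF1A1, 0.137 for EIF4A2, 0.144 for EIF2B3, 0.155 for EIF2S1, 0.202 for EIF5B and 0.200 for EIF4G1, and 7 to 128 of the 13010 genes were called. Without either shL1CAM_dish library 5 of the 6 remained, all but EIF4G1. Without replicate 1 or replicate 2 of shL1CAM_slice, 28 factors were called (12 higher and 16 lower), beside 46.8% of all genes without replicate 1 and 47.0% without replicate 2. The additional calls without replicate 2 included EEF2, EEF1B2, EEF1G, EIF3E, EIF3F and EIF3L as higher and EIF3A, EIF3B, EIF3D, EIF3I and EIF3K as lower.

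The knockdown comparison asks whether L1CAM shRNA changed these messages on the slice or in the dish. By limma 0 of 52 factors were called on the slice, beside 0.646% of all genes, and 0 of 52 in the dish, beside 0.307% of all genes. Unadjusted p was under 0.05 for 3 factors on the slice, EIF4EBP1, EIF4G1 and EIF4G3, and for 1 in the dish, EIF3J. Over all 13010 genes tested, it was under 0.05 for 2384 on the slice and 1217 in the dish, so these factors do not stand out. edgeR and DESeq2 on the recovered reads called 0 factors in each. A fit of only the 4 libraries compared called 1 factor in the dish, EEF1A2, as lower, beside 6.33% of all genes, and 0 on the slice. For the interaction of shRNA and culture, 0 of 52 factors and 0.00% of all genes were called by limma, and edgeR and DESeq2 also called 0 factors. Unadjusted p for the interaction was under 0.05 for 0 factors, beside 162 of the 13010 genes tested.

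The class medians of L1CAM over control shRNA were 0.11 on the slice and -0.05 in the dish for the TOP-type elongation factors, 0.01 on the slice and -0.10 in the dish for EIF3, and -0.01 on the slice and -0.05 in the dish for the other initiation factors. With replicate 2 of shL1CAM_slice left out, the slice medians were -0.10 for the TOP-type elongation factors, -0.11 for EIF3 and -0.03 for the other initiation factors. In that fit 23 of 52 factors had the opposite sign on the slice. EIF3J, a loosely bound subunit that helps place EIF3 on the ribosome, had 2951 and 3922 normalized counts in shL1CAM_dish against 4892 and 4312 in shControl_dish. Both knockdown libraries were below both control libraries, and the log2 ratio between them was -0.43 ± 0.17 (limma adjusted p = 0.447). EIF4EBP1 had 1041 and 1885 in shL1CAM_slice against 871 and 969 in shControl_slice, and 1461 and 1439 in shL1CAM_dish against 1071 and 1175 in shControl_dish. The L1CAM shRNA libraries were higher in both cultures, at log2 fold changes of 0.61 ± 0.25 on the slice and 0.37 ± 0.25 in the dish (limma adjusted p = 0.252 and 0.725). The slice value was 0.18 without replicate 2 of shL1CAM_slice.

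For EEF1A2, whose values in every library are given above, the log2 fold change of L1CAM over control shRNA was -0.41 ± 0.24 on the slice and -0.52 ± 0.24 in the dish, with limma adjusted p-values of 0.355 and 0.572. It was called in both cultures when replicate 2 of shL1CAM_slice was left out, at -0.83 on the slice and -0.52 in the dish, with limma adjusted p-values of 0.00160 and 0.00490. In that fit 4.67% of all genes were called on the slice and 11.0% in the dish, and the other factors called were EIF3J, EIF3M and EIF4EBP1, all in the dish. Without replicate 1 of the same group, 26 factors were called on the slice (20 higher and 6 lower) beside 53.0% of all genes, 4 in the dish beside 11.0% and 22 in the interaction beside 31.8%, so these counts differed with which library of the group was kept.

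Of the other genes of the translation machinery, the list of termination and recycling factors had 0 of 4 higher and 2 of 4 lower with L1CAM shRNA, and 0 higher and 1 lower with control shRNA. For this and the lists that follow, the shares of all genes called were 10.1% higher and 11.2% lower with L1CAM shRNA. They were 6.80% higher and 8.03% lower with control shRNA. No list was tested as a set. GSPT1, the release factor GTPase, was called lower with both, at -0.61 ± 0.13 with L1CAM shRNA (limma adjusted p = 0.0135) and -0.56 ± 0.13 with control shRNA (limma adjusted p = 0.0219), and had normalized counts of 2548 and 2444 in shL1CAM_slice and 2797 and 2649 in shControl_slice, against 3742 and 3864 in shL1CAM_dish and 3963 and 4087 in shControl_dish. ABCE1, which splits ribosomes after termination, had -0.76 ± 0.19 with L1CAM shRNA (limma adjusted p = 0.0231) and -0.60 ± 0.19 with control shRNA (limma adjusted p = 0.0633), so it was called with L1CAM shRNA alone; that difference between the shRNAs did not pass the interaction test. Among 11 further initiation cofactors, 0 and 2 were called higher and lower with L1CAM shRNA and 0 and 0 with control shRNA. DHX29, a helicase for structured leaders, had -0.82 ± 0.17 with L1CAM shRNA (limma adjusted p = 0.0135) and -0.57 ± 0.17 with control shRNA (limma adjusted p = 0.0563), PABPC4, a poly-A binding protein, -0.38 with L1CAM shRNA (limma adjusted p = 0.0635) and -0.41 with control shRNA (limma adjusted p = 0.0640), MCTS1, a reinitiation factor, -0.30 with L1CAM shRNA (limma adjusted p = 0.292) and -0.62 with control shRNA (limma adjusted p = 0.0661), and ABCF1, an EIF2-binding ATPase, -0.45 with L1CAM shRNA (limma adjusted p = 0.0647) and -0.46 with control shRNA (limma adjusted p = 0.0780). Of the cofactors, DDX3X, a helicase, was the other called lower with L1CAM shRNA, at -0.93.

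Of the 9 kinases and phosphatases that act on these factors, 2 were called higher and 1 lower with L1CAM shRNA and 2 higher and 0 lower with control shRNA. MKNK2, which phosphorylates EIF4E, had normalized counts of 2533 and 3098 in shL1CAM_slice and 2285 and 2510.1 in shControl_slice, against 1624 and 1409 in shL1CAM_dish and 1325 and 1517 in shControl_dish. It rose with either shRNA, at 0.89 ± 0.16 with L1CAM shRNA (limma adjusted p = 0.00822) and 0.76 ± 0.16 with control shRNA (limma adjusted p = 0.0185). EIF2AK1, the heme-regulated kinase of EIF2S1, also rose, at 0.52 ± 0.13 with L1CAM shRNA (limma adjusted p = 0.0243) and 0.50 ± 0.13 with control shRNA (limma adjusted p = 0.0338), while its substrate's message fell as given above. EIF2AK2, the kinase activated by double-stranded RNA, had -0.68 ± 0.19 with L1CAM shRNA (limma adjusted p = 0.0357) and -0.60 ± 0.19 with control shRNA (limma adjusted p = 0.0667), and PPP1R15A, which targets a phosphatase to EIF2S1, had -0.30 with L1CAM shRNA (limma adjusted p = 0.257) and -0.54 with control shRNA (limma adjusted p = 0.0783).

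In the list of 11 mTORC1 genes, 3 were called higher and 1 lower with L1CAM shRNA and 1 higher and 0 lower with control shRNA. DEPTOR, an inhibitor of the kinase, had normalized counts of 381 and 340.3 in shL1CAM_slice and 298 and 253 in shControl_slice, against 132 and 90.3 in shL1CAM_dish and 119 and 139 in shControl_dish. Its slice libraries were all above its dish libraries, with log2 fold changes of 1.71 ± 0.22 with L1CAM shRNA (limma adjusted p = 0.00279) and 1.09 ± 0.22 with control shRNA (limma adjusted p = 0.0164). RPS6KB2, an S6 kinase, had 0.95 with L1CAM shRNA (limma adjusted p = 0.0173) and 0.65 with control shRNA (limma adjusted p = 0.0756), TSC1, part of the complex that restrains mTORC1, 0.31 with L1CAM shRNA (limma adjusted p = 0.282) and 0.54 with control shRNA (limma adjusted p = 0.101), and RPS6KB1, the main S6 kinase, 0.23 with L1CAM shRNA (limma adjusted p = 0.356) and 0.45 with control shRNA (limma adjusted p = 0.109). With L1CAM shRNA, AKT1S1 was also called higher (0.96) and LARP1, the protein that binds TOP starts, lower (-0.89). LARP1 had normalized counts of 4898 and 2957 in shL1CAM_slice and 5438 and 5297 in shControl_slice, against 7376 and 6709 in shL1CAM_dish and 7113 and 6232 in shControl_dish, with replicate 2 of shL1CAM_slice the lowest library.

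Enzymes that modify EIF5A with hypusine and EEF2 with diphthamide had 2 of 7 tested genes higher and 0 lower with L1CAM shRNA, and 1 higher and 0 lower with control shRNA; 7 of the 9 listed genes were matched in the table. DPH3, a diphthamide enzyme, had 0.85 ± 0.19 with L1CAM shRNA (limma adjusted p = 0.0177) and 0.70 ± 0.19 with control shRNA (limma adjusted p = 0.0438), DNAJC24 (DPH4) 0.79 with L1CAM shRNA (limma adjusted p = 0.0274) and 0.53 with control shRNA (limma adjusted p = 0.118), DPH2 0.57 with L1CAM shRNA (limma adjusted p = 0.0528) and 0.18 with control shRNA (limma adjusted p = 0.535) and DPH1 0.02 with L1CAM shRNA (limma adjusted p = 0.947) and -0.16 with control shRNA (limma adjusted p = 0.562). Among 9 mitochondrial translation factors, 0 were higher and 2 lower with L1CAM shRNA and 1 higher and 2 lower with control shRNA. GFM1, the mitochondrial counterpart of EEF2, had normalized counts of 659.5 and 474 in shL1CAM_slice and 802 and 754 in shControl_slice, against 1559 and 1375 in shL1CAM_dish and 1551 and 1469 in shControl_dish. It fell with either shRNA, at -1.39 ± 0.18 with L1CAM shRNA (limma adjusted p = 0.00279) and -0.96 ± 0.18 with control shRNA (limma adjusted p = 0.0126), whereas EEF2 itself had positive values that did not pass. MTIF2, the mitochondrial initiation factor, had -0.56 with L1CAM shRNA (limma adjusted p = 0.0187) and -0.56 with control shRNA (limma adjusted p = 0.0236), MTRF1L, a release factor, 0.26 with L1CAM shRNA (limma adjusted p = 0.316) and 0.65 with control shRNA (limma adjusted p = 0.0407), and TUFM, the mitochondrial EEF1A counterpart, -0.35 with L1CAM shRNA (limma adjusted p = 0.210) and -0.53 with control shRNA (limma adjusted p = 0.0902).

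Of 7 tested TOP messages of other functions, 1 was called higher and 1 lower with each shRNA. TPT1, an abundant message for a tumor protein that binds EEF1A and its exchange complex, had normalized counts of 47328 and 66851 in shL1CAM_slice and 51657 and 51582 in shControl_slice, against 23424 and 23616 in shL1CAM_dish and 22454 and 26172 in shControl_dish. All slice libraries lay far above all dish libraries, with log2 fold changes of 1.26 ± 0.18 with L1CAM shRNA (limma adjusted p = 0.00388) and 1.09 ± 0.18 with control shRNA (limma adjusted p = 0.00838). NPM1, a nucleolar chaperone, had normalized counts of 11364 and 12914 in shL1CAM_slice and 11848 and 11262 in shControl_slice, against 16928 and 17714 in shL1CAM_dish and 17895 and 17941 in shControl_dish. It fell, at -0.52 ± 0.14 with L1CAM shRNA (limma adjusted p = 0.0282) and -0.63 ± 0.14 with control shRNA (limma adjusted p = 0.0185), so TOP messages outside the factors did not all move one way. GNB2L1, the ribosomal scaffold RACK1, had 0.46 with L1CAM shRNA (limma adjusted p = 0.132) and 0.25 with control shRNA (limma adjusted p = 0.422) and BTF3, a subunit of the nascent chain complex, 0.39 with L1CAM shRNA (limma adjusted p = 0.154) and 0.18 with control shRNA (limma adjusted p = 0.531). Of the 58 tested genes of these 7 lists, 0 were called in either knockdown comparison by limma or edgeR, 8 on the slice and 4 in the dish had an unadjusted p under 0.05, and DESeq2 called 1, MTRF1L, on the slice. Over all 13010 genes tested, 2384 on the slice and 1217 in the dish had an unadjusted p under 0.05.

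Of these 58 genes, 17 were called with L1CAM shRNA and 10 with control shRNA. The 17 calls were all made without either shL1CAM_slice library. Of them 9 remained when any 1 control library was left out. The calls that remained were 2 (DEPTOR and GFM1) without replicate 1 of shL1CAM_dish and 4 (these, DPH3 and TPT1) without replicate 2 of shL1CAM_dish. Without replicate 2 of shL1CAM_slice the log2 fold changes were -0.51 for DDX3X, -0.52 for LARP1, 0.64 for AKT1S1, -0.48 for ABCE1 and -0.40 for EIF2AK2. Of the 10 calls with control shRNA, 0 remained when any 1 of the 4 control libraries was left out. Without either shL1CAM_dish library 8 remained, all but EIF2AK1 and MTRF1L. The calls over all genes also changed with the library left out, as given above, so these losses are not read as particular to the lists. With no filter on low values, EIF2AK2 and NPM1 were no longer called with L1CAM shRNA, and DPH3, EIF2AK1 and MTRF1L no longer with control shRNA.

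The Argonautes, which load small RNAs to silence messages, had 0 of 4 called in every comparison by limma, edgeR and DESeq2 on all 8 libraries. In the slice comparisons and the interaction none had an unadjusted p under 0.05, and in the knockdown comparisons AGO2 had one in both cultures and AGO3 on the slice. Of all 13010 genes tested, 2384 on the slice and 1217 in the dish had one in the knockdown comparisons. AGO1 (EIF2C1) had normalized counts of 743 and 393 in shL1CAM_slice and 650.3 and 656 in shControl_slice, against 524 and 551 in shL1CAM_dish and 580.0 and 499.9 in shControl_dish. AGO2 (EIF2C2), the slicing Argonaute, had normalized counts of 843 and 479.5 in shL1CAM_slice and 1095 and 980.1 in shControl_slice, against 661 and 801 in shL1CAM_dish and 1295 and 988 in shControl_dish. The L1CAM shRNA libraries of AGO2 were below the control libraries in both cultures, at log2 fold changes of -0.70 ± 0.26 on the slice and -0.64 ± 0.26 in the dish (limma adjusted p = 0.232 and 0.495). The slice value was -0.30 without replicate 2 of shL1CAM_slice. AGO3 (EIF2C3) had normalized counts of 224 and 138 in shL1CAM_slice and 263 and 277 in shControl_slice, against 136 and 186 in shL1CAM_dish and 223 and 182 in shControl_dish. AGO4 (EIF2C4) had normalized counts of 337 and 169 in shL1CAM_slice and 262 and 261 in shControl_slice, against 277 and 219.8 in shL1CAM_dish and 183 and 233 in shControl_dish. For all 4 the lower of the shL1CAM_slice libraries was replicate 2, the library whose long transcripts were low, and the part of that in these values was not tested. Their slice log2 fold changes were -0.19 to 0.14 with L1CAM shRNA and -0.13 to 0.42 with control shRNA. Without that library those with L1CAM shRNA were 0.21 to 0.49.

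Levels per kilobase of transcript in shControl_dish placed EIF5A (16027 normalized counts per kilobase) and EEF2 (10832) at the top, followed by EIF3K (6688), EIF1 (6586), EIF3E (5817), EEF1G (5503) and EEF1A1 (5120.5). EIF4A2 had 4439 in shControl_slice and 2348 in shControl_dish. The Argonautes had 17.7 to 129. Each length is the median over a gene's annotated transcripts, those matched to RefSeq where there were any. These levels therefore depend on which transcripts are annotated.

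The 7 members not tested were EEF1E1-MUTED, EIF3CL and EIF4A1, listed at 0 in all 8 libraries, EIF3C with at most 1.07 normalized counts, EIF4E1B, EIF5A2 and EIF1AY. EIF3C and EIF3CL are near-identical copies, and like EIF4A1 they encode parts that growing cells use, so a value at or near 0 in this table is not read as an absence of the message. The kit did not mark the strand, so reads of a gene and of an overlapping gene on the other strand could not be told apart for any member.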

How the data were processed

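Ribosome-bound RNA was measured in 8 libraries, 2 in each of 4 groups taken from the labels. The authors deposited a normalized signal per gene symbol; per the submitters' processing notes FastQC 0.11.3, HTSeq 0.5.4 and DESeq2 were used with hg19/GRCh37, while no source used here gives the aligner or the annotation. Every deposited signal value was a whole multiple of 1 step per library (100% of values, tolerance 1e-06), so whole reads were recovered. Values were analysed as log2(normalized count + 1). Genes with a mean of at least 10 (13010) entered 1 limma fit of the 4 groups (limma 3.58.1, R 4.3.3; eBayes with trend; two-sided; Benjamini-Hochberg within each contrast; threshold 0.05), which assumes that groups vary alike.

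Alternatives were no filter or a filter at a mean of 50, pseudocounts of 0.25 and 10, scaling by TMM or by the upper quartile, the replicate number as a block, only the libraries compared, edgeR 4.0.16, DESeq2 1.42.0, removal of a transcript-length trend (12460 genes with a length, 95.8%) and each library left out. The fit was tested on simulated counts for slice against dish with control shRNA, with the same dispersion in all libraries. It recovered 62 of 100 genes changed by a log2 fold of 1 and 100 of 100 changed by 2, with 5 false calls. The wider spread of shL1CAM_slice was not simulated, so the test does not cover it. Limits from counts cover counting error only, since reads are not independent molecules. The members, classes and lists were chosen with earlier results of these data known. Every member may be named; values in every library are given for the TOP-type elongation factors, EEF1A2, up to 4 members per class with the smallest p for slice against dish with control shRNA, and the EIF4A, EIF5A, EIF4E, EIF4G and EIF4EBP paralogs, and each pathway list adds up to 4 genes with the smallest p in that comparison. Called genes outside this rule (EIF5B, EIF5, DDX3X, AKT1S1, LARP1), and EIF3F, EIF3H, EIF6 and others given for contrast, were chosen after their values were seen. Start sequences are from RefSeq on GRCh38.p14, a later build than the files use, so no gene coordinates of the files are given. The level of 1 marker list is not reported here.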

Additional observations from a re-analysis of the deposited data

How the results depend on the processing

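All values here are slice over dish or L1CAM over control shRNA, as in the report. When only the 4 libraries compared were fitted, the count of factors called on the slice with L1CAM shRNA, 9, came to 0 (3.92% of all genes called). It was 6 with no filter, without EEF1B2, EIF4E3 and EIF5. With control shRNA, 6 came to 34 with only the libraries compared (52.3% of all genes) and to 14 with the transcript-length trend removed (25.8%). With only the libraries compared, in the dish the knockdown count of 0 came to 1 (EEF1A2, beside 6.33%). Leaving out 1 library at a time gave 1 to 32 factors for the slice with L1CAM shRNA, 0 to 28 with control shRNA, 0 to 26 for the knockdown on the slice, 0 to 4 in the dish and 0 to 22 for the interaction. The EIF3 median with control shRNA, -0.14, was -0.091 with no filter, -0.15 with TMM scaling, with upper-quartile scaling and with the length trend removed, and -0.16 with edgeR. The median of the other initiation factors was 0.092 with L1CAM shRNA and -0.020 with control shRNA without the EIF4E-binding proteins, EIF1AD, EIF4A3, the EIF5A genes and EIF6. Medians over the libraries left out ran, with L1CAM shRNA, from 0.28 to 0.81 for TOP-type elongation factors, -0.047 to 0.29 for EIF3 and -0.089 to 0.069 for other initiation factors. They ran from -0.19 to -0.076 for EIF3 with control shRNA, from -0.10 to 0.51 for TOP-type elongation factors in the slice knockdown and from -0.093 to -0.0070 for other initiation factors in the dish knockdown. The report gives the factors that changed sign without replicate 2 of shL1CAM_slice. With L1CAM shRNA, 5 genes were called with the opposite sign when 1 library of shL1CAM_slice was left out: without replicate 1 and without replicate 2, in this order, AGO1 (EIF2C1) was -0.45 and 0.47, EIF2AK4 -0.34 and 0.39, EIF3I 0.28 and -0.28, EIF4EBP1 0.38 and -0.48, and EIF3K 0.42 and -0.33. The cause was not tested beyond the construction of each alternative. With the replicate block, counts were 8 on the slice with L1CAM shRNA (EIF4E3 being the call lost), 6 with control shRNA (of the pathway lists, EIF2AK1 and MTRF1L were lost) and 0 in both knockdown comparisons and the interaction. The numbers do not pair the libraries: same-numbered deviations correlated at -0.38 to 0.19 over the 6 group pairs. For the pair at -0.38, the dish groups, a crossed block chosen after seeing the data called 0 factors and 30 of all genes. With 2 libraries per group, small changes could be missed. The group shL1CAM_slice had the widest spread (0.637, against 0.218 to 0.303, as the SD over genes of the log2 difference between replicates). That spread is not a limit of detection for a single gene.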
